A study of Mus musculus with 19 samples.

Results

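The 41 genes described here encode the nucleolar enzymes and assembly factors that modify ribosomal RNA (rRNA) and build the small (40S) ribosomal subunit. They were chosen by name and function, with earlier results of these data known, and all 41 were found among the 55359 genes of the count tables. They comprise 5 methyl and acetyl transferases, 7 core proteins of small nucleolar ribonucleoproteins (snoRNPs), 2 abundant nucleolar proteins, 18 proteins of the small subunit processome and 9 factors of late 40S assembly.

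The study compared a Mettl5 knockout (KO) of B16-F10, a melanoma line of the mouse, with B16-F10 cells that carried a scrambled control (SCR). METTL5 is a methyltransferase that modifies an adenosine of 18S rRNA, the RNA of the small subunit. Each genotype had 2 libraries of input RNA and 2 libraries of ribosome footprints, the mRNA fragments that ribosomes protect from nuclease, from cells treated with cycloheximide at 100 µg/ml for 8 min. In the count tables the KO columns are named POOL and were taken as KO because the other columns are named SCR. The labels give neither the edit nor whether the KO line is 1 clone. Nothing in them states that the replicates were grown as separate cultures, and the p-values therefore cover the spread between these libraries alone, which may be technical.

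In the nucleolus, RNA polymerase I makes a long precursor that holds 18S rRNA. The small subunit processome, a very large complex, forms on this precursor while snoRNPs guide methylation of ribose and the change of uridine to pseudouridine, and separate enzymes add base modifications. After the processome comes apart, late factors accompany the pre-40S particle to the cytoplasm, where the last cut of 18S rRNA is made. The comparisons ask which of these mRNAs differed in amount, in ribosome occupancy and in occupancy relative to amount between KO and SCR cells.

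The libraries held 43601773 to 48692578 gene counts in KO and 38968000 to 43083013 in SCR input RNA, and 14555963 to 21366608 in KO and 28059683 to 31301806 in SCR footprints. The 41 genes had 356 to 24397 counts per library in input RNA and 134 to 10732 in footprints, and all of them passed the filter on low counts in each comparison. Mettl5 itself was at 6.46 and 6.21 CPM (counts scaled to a common library size) in KO and 9.23 and 9.41 CPM in SCR input RNA, and it fell (log2 fold change -0.56, SE 0.13, adjusted p = 0.0284). Its footprints were at 11.1 and 11.6 CPM in KO and 15.1 and 13.8 CPM in SCR cells (-0.35, SE 0.09, adjusted p = 0.112). Since reads were summed over the whole gene, these values are only a partial check of the edit. The 8 melanocyte markers summed to 14400 and 14200 CPM in KO and 13100 and 13300 CPM in SCR input RNA, where Dct, Mlana and Slc45a2 rose, Mitf and Tyr fell and 3 did not pass. Their footprints summed to 47500 and 44200 CPM in KO and 52100 and 57000 CPM in SCR cells. The 7 blood cell markers summed to 1.45 and 2.41 CPM in KO and 2.43 and 2.87 CPM in SCR input RNA, with Ptprc, Cd3e, Itgam and Hbb-bs at 0 in input RNA. The 7 markers of fibroblasts and endothelium summed to 7.23 and 7.58 CPM in KO and 10.6 and 8.64 CPM in SCR input RNA, nearly all from Pdgfrb, with Dcn, Lum, Cdh5 and Kdr at 0. Col3a1 had 0 and 0 counts in KO and 16 and 17 counts in SCR input RNA, and it fell. The part of these marker differences in the results below was not tested. Levels below are CPM scaled by the trimmed mean of M-values (TMM), log2 fold changes are KO minus SCR with the SE of the fit, and a gene is said to rise or fall where the adjusted p of edgeR's quasi-likelihood test (Benjamini-Hochberg, over all genes tested) is below 0.05.

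In input RNA, 21 of the 41 genes rose in KO cells and none fell. Over all 20025 genes tested, 9.56% rose and 7.21% fell. At an unadjusted p below 0.05, 34 members were higher and 0 lower, which is 82.9% of the members, against 32.2% of all genes tested. The genes tested include some with far fewer counts than any member, such as Pecam1 with 8 to 20 per input RNA library. The shares over all genes, here and below, are therefore not matched for counts. DESeq2 called 25 members higher and none lower, where it called 14.6% of all genes higher and 10.1% lower. Limma's voom called 21 higher and none lower, with 9.48% of all genes higher and 7.12% lower. The rises were small, with folds of 1.14 to 1.49, and they came from all 5 functional groups. Another 17 genes had log2 fold changes above 0 without passing, and 3 were below 0 (Nop10, Dimt1 and Noc4l). The median log2 fold change was 0.26 for the 41 genes and -0.01 for all genes tested. Both KO libraries lay above both SCR libraries in 36 genes, against 31% of all genes, and below them in 1 gene, against 31%. The summed level of the 41 genes was 4190 and 4130 CPM in KO and 3310 and 3510 CPM in SCR input RNA, a mean 1.22-fold higher in KO. In bulk RNA, a change in the share of cells and a change in RNA per cell cannot be told apart.

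The number of rises depended on single libraries. Without SCR replicate 1, 4 genes passed (Fbl, Rrp9, Npm1 and Rrp12), as did 1031 of all genes in place of 3358. Without SCR replicate 2 there were 11 rises among the members and 1417 calls among all genes, and with no filter on low counts there were 11 rises among the members and 1193 calls among all genes. With library totals as the only scaling there were 17 rises, and of all genes called 39.3% were higher, against 57% with TMM. All 21 genes kept a fold change above 0 in every one of these settings and in the others that were run, and no member fell in any of them.

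**Figure D1:**
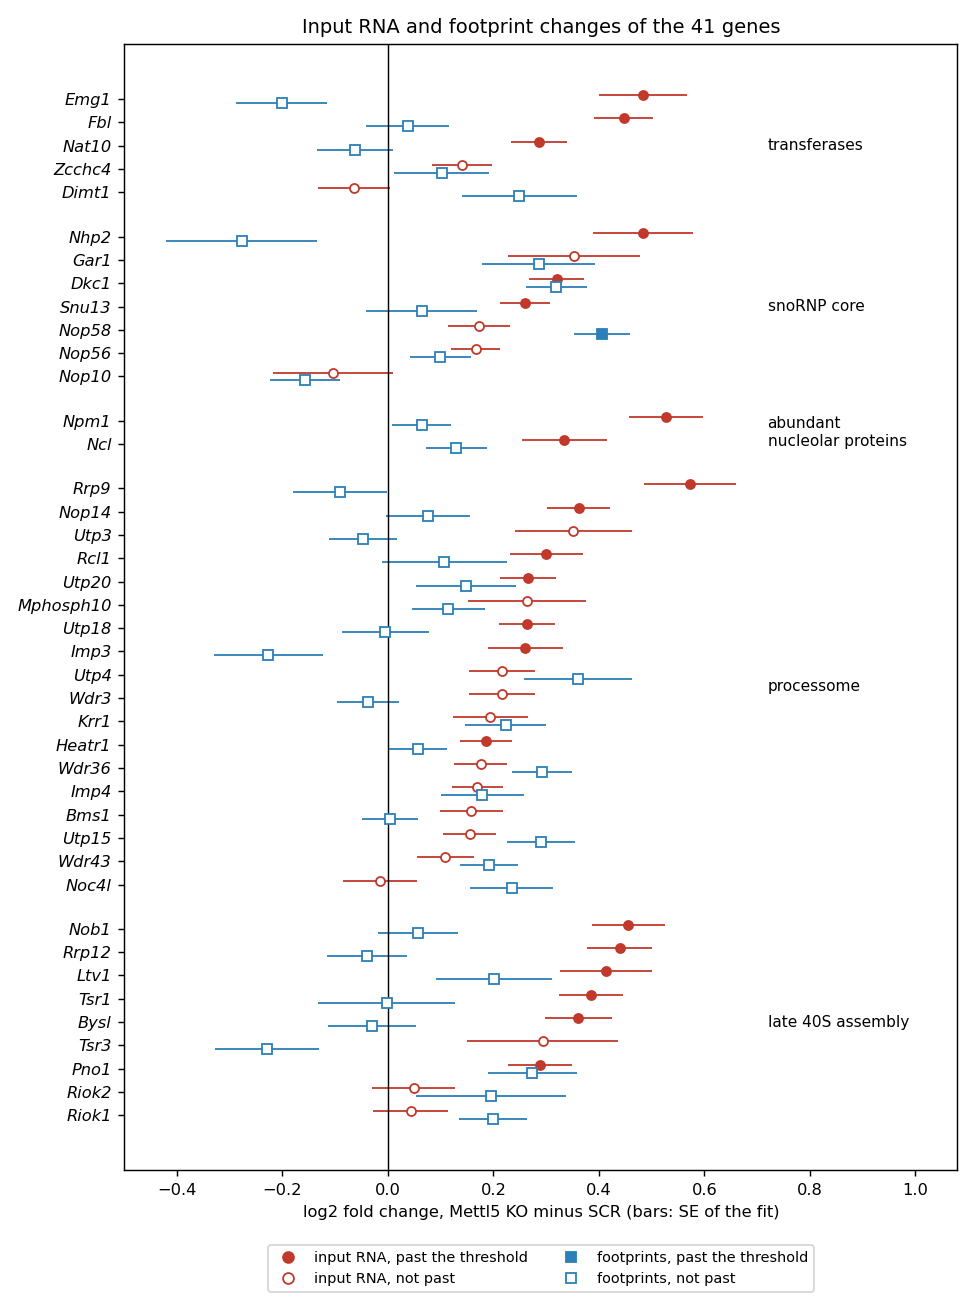
Log2 fold changes (KO minus SCR, x axis) of the 41 genes in input RNA (red circles) and in footprints (blue squares), grouped by role and ordered by RNA change within a role. Bars are the SE of the fit and filled symbols passed the threshold: 21 filled circles lie right of 0, and Nop58 is the single filled square.

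Of the 5 transferases, 3 rose in input RNA. Fbl encodes fibrillarin, the ribose methyltransferase of box C/D snoRNPs, and it was at 65.8 and 64.6 CPM in KO and 47.0 and 48.6 CPM in SCR libraries (0.45, SE 0.06, adjusted p = 0.00512). Emg1, which methylates a pseudouridine of 18S rRNA, was at 139 and 118 CPM in KO and 89.2 and 94.4 CPM in SCR libraries (0.48, SE 0.08, adjusted p = 0.0119). Nat10, the acetyltransferase that makes N4-acetylcytidine, was at 76.6 and 74.7 CPM in KO and 62.4 and 61.7 CPM in SCR libraries (0.29, SE 0.05, adjusted p = 0.0146). In each of these 3 genes the KO libraries lay above both SCR libraries. Dimt1, the dimethyltransferase of 2 neighbouring adenosines of 18S rRNA, was at 29.6 and 31.0 CPM in KO and 32.0 and 31.3 CPM in SCR libraries (-0.06, SE 0.07, adjusted p = 0.564), and it was the single member whose KO libraries lay below both SCR libraries. Zcchc4, which methylates an adenosine of 28S rRNA in the large subunit, was at 60.8 and 58.3 CPM in KO and 53.9 and 54.1 CPM in SCR libraries (0.14, SE 0.06, adjusted p = 0.138). Its groups did not overlap either, but the difference did not pass the threshold.

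The 7 snoRNP core genes fall into proteins of box C/D particles (Nop56, Nop58, Snu13), which guide ribose methylation, and of box H/ACA particles (Dkc1, Nop10, Nhp2, Gar1), which guide pseudouridylation. Dkc1, the pseudouridine synthase itself, was at 108 and 106 CPM in KO and 83.9 and 87.5 CPM in SCR input RNA, and it rose (0.32, SE 0.05, adjusted p = 0.0101). Nhp2, an H/ACA scaffold protein, was at 124 and 103 CPM in KO and 77.5 and 85.1 CPM in SCR libraries (0.48, SE 0.09, adjusted p = 0.0166). Snu13, which binds the kink-turn of C/D snoRNAs, was at 169 and 168 CPM in KO and 143 and 139 CPM in SCR libraries (0.26, SE 0.05, adjusted p = 0.0141). The KO libraries of these 3 genes lay above the SCR libraries, and the other 4 did not pass. Nop10, the smallest H/ACA protein, was the lowest member of all 41, at -0.10 (SE 0.11, adjusted p = 0.572).

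Both abundant nucleolar proteins rose in input RNA. Npm1, which encodes nucleophosmin, a chaperone of the granular nucleolus, was at 520 and 491 CPM in KO and 328 and 374 CPM in SCR libraries (0.53, SE 0.07, adjusted p = 0.00583). Ncl, which encodes nucleolin, an RNA-binding protein of early rRNA processing, was at 518 and 554 CPM in KO and 390 and 460 CPM in SCR libraries (0.33, SE 0.08, adjusted p = 0.0321). The groups did not overlap in either gene. Genes such as Npm1 have near-identical processed copies in the genome, so their counts are uncertain to the extent that reads were shared among copies.

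Of the 18 processome genes, 7 rose and 11 did not pass, and the median log2 fold change was 0.22. Rrp9, the U3 snoRNA-binding protein, had the largest rise of the 41 genes, at 33.5 and 30.1 CPM in KO and 20.7 and 22.1 CPM in SCR libraries (0.57, SE 0.09, adjusted p = 0.00839). Nop14, a protein of the processome core, was at 60.5 and 58.2 CPM in KO and 45.1 and 47.2 CPM in SCR libraries (0.36, SE 0.06, adjusted p = 0.0107). Utp20, a very long repeat protein, was at 163 and 170 CPM in KO and 135 and 142 CPM in SCR libraries (0.26, SE 0.05, adjusted p = 0.0179). None of these 3 genes had overlapping groups. The other rises were Rcl1, Utp18, Imp3 and Heatr1, and the lowest processome member was Noc4l, at -0.01 (SE 0.07, adjusted p = 0.909).

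Of the 9 late 40S assembly genes, 6 rose, and the median was 0.36. Rrp12, which in yeast takes part in export of the pre-40S particle, was at 64.2 and 60.1 CPM in KO and 45.4 and 46.2 CPM in SCR libraries (0.44, SE 0.06, adjusted p = 0.00686). Nob1, the nuclease that makes the last cut of 18S rRNA, was at 43.9 and 41.4 CPM in KO and 30.0 and 32.2 CPM in SCR libraries (0.46, SE 0.07, adjusted p = 0.00873). Tsr1, which resembles a translational GTPase and occupies the pre-40S particle, was at 89.9 and 82.6 CPM in KO and 65.6 and 66.6 CPM in SCR libraries (0.38, SE 0.06, adjusted p = 0.00941). The groups did not overlap in these 3 genes. Ltv1, Bysl and Pno1, the partner of Nob1, also rose. The kinases Riok1 and Riok2 stood lowest, at 0.04 (SE 0.07, adjusted p = 0.716) and 0.05 (SE 0.08, adjusted p = 0.711), with overlapping groups in both.

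**Figure D2:**
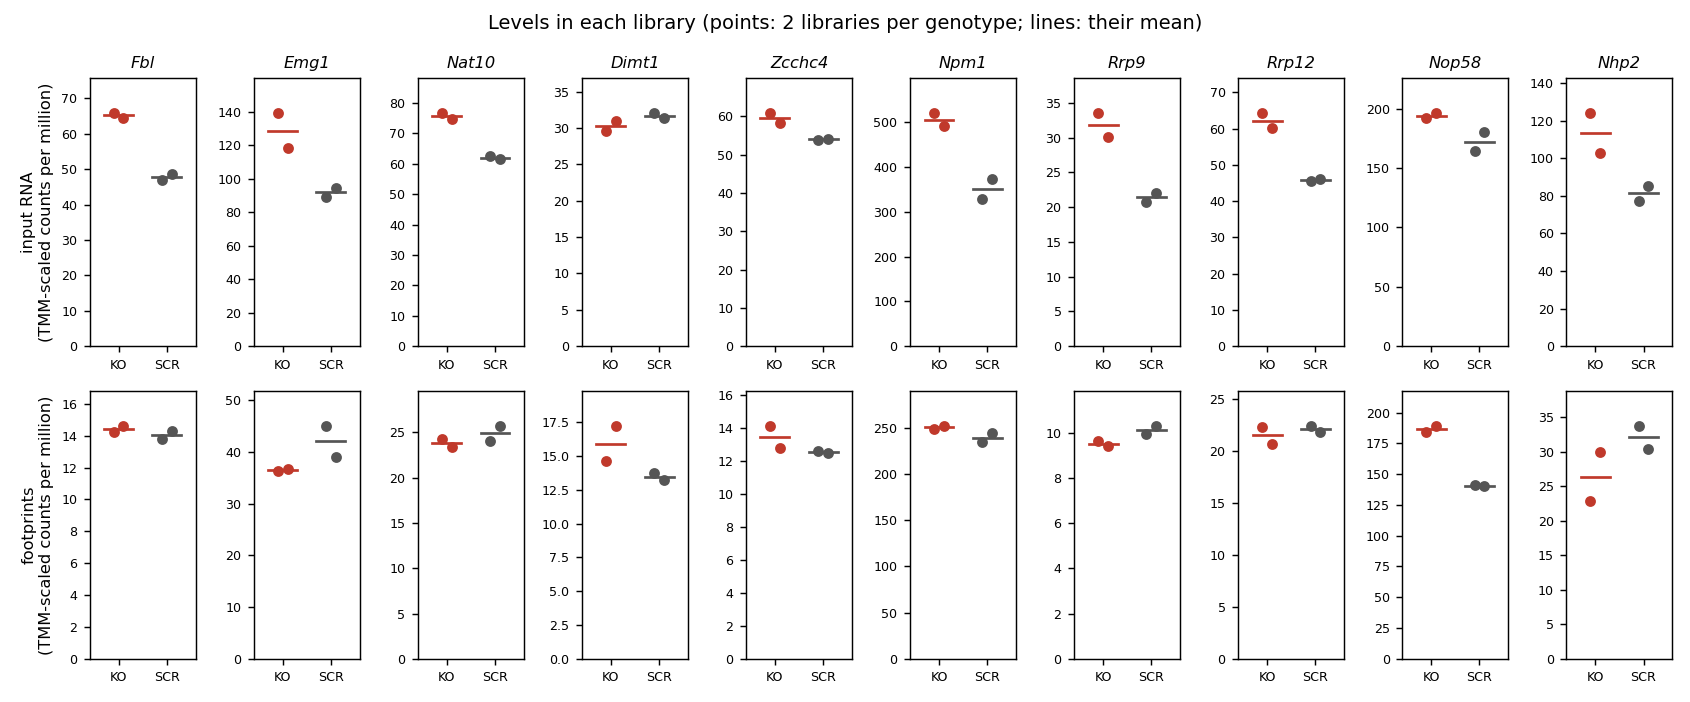
Levels of 10 genes in each library (y axes: TMM-scaled CPM, starting at 0; upper panels input RNA, lower panels footprints), with KO libraries left of SCR libraries and lines at the mean of 2. In the upper panels KO points of every gene drawn except Dimt1 lie above the SCR points, and in the lower panels the clearest separation is in Nop58.

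In footprints, 1 of the 41 genes rose and none fell, while 0.51% of the 16878 genes tested rose and 1.78% fell. At an unadjusted p below 0.05, 11 members were higher and 0 lower, which is 26.8% of the members, against 25% of all genes tested. DESeq2 called 3 members higher and none lower, where it called 4.6% of all genes higher and 10.7% lower. Limma's voom called 1 higher and none lower, with 0.521% of all genes higher and 1.63% lower. The median log2 fold change was 0.10 for the 41 genes and 0.01 for all genes, and 28 members were above 0 and 13 below. Both KO libraries lay above both SCR libraries in 21 members, against 29.5% of all genes, and below them in 8, against 28.2%. The summed footprints were 2180 and 2160 CPM in KO and 1990 and 2000 CPM in SCR cells, a mean 1.09-fold higher in KO. With library totals as the only scaling, 4 members rose (Nop58, Utp15, Wdr36 and Dkc1), the median of all genes was 0.12, and 65.2% of all genes called were higher, against 22.2% with TMM; the members stood 0.09 above all genes under both scalings.

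The gene that rose was Nop58, the C/D snoRNP partner of Nop56, with 184 and 189 CPM in KO and 141 and 140 CPM in SCR footprints (0.41, SE 0.05, adjusted p = 0.0440). The groups were far apart relative to their own spread. Nop58 holds 4 snoRNA genes, and whether their fragments entered its footprint count was not tested. The call was lost when any 1 footprint library was left out. Its RNA was at 192 and 196 CPM in KO and 164 and 180 CPM in SCR cells (0.17, SE 0.06, adjusted p = 0.0927).

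Among the other snoRNP genes, Dkc1 footprints were at 65.5 and 63.2 CPM in KO and 50.8 and 52.3 CPM in SCR cells (0.32, SE 0.06, adjusted p = 0.0648), a difference as large as in its RNA. Gar1, an H/ACA protein, was at 14.3 and 16.8 CPM in KO and 12.6 and 12.9 CPM in SCR footprints (0.29, SE 0.11, adjusted p = 0.192). Neither gene had overlapping groups, and neither passed. Nhp2 stood at the other end of all members, with 22.9 and 29.9 CPM in KO and 33.7 and 30.4 CPM in SCR footprints (-0.28, SE 0.14, adjusted p = 0.307).

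None of the transferases passed in footprints. Fbl was at 14.2 and 14.6 CPM in KO and 13.8 and 14.3 CPM in SCR cells (0.04, SE 0.08, adjusted p = 0.814), and Nat10 at 24.3 and 23.4 CPM in KO and 24.1 and 25.7 CPM in SCR cells (-0.06, SE 0.07, adjusted p = 0.642). The groups overlapped in both genes. Emg1 was at 36.4 and 36.7 CPM in KO and 45.0 and 39.1 CPM in SCR footprints (-0.20, SE 0.09, adjusted p = 0.236), so its KO libraries lay below the SCR libraries while its RNA had risen. Dimt1 was at 14.6 and 17.2 CPM in KO and 13.7 and 13.2 CPM in SCR cells (0.25, SE 0.11, adjusted p = 0.244), and Zcchc4 at 14.1 and 12.8 CPM in KO and 12.6 and 12.5 CPM in SCR cells (0.10, SE 0.09, adjusted p = 0.538). In these 2 genes the KO libraries lay above the SCR libraries.

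Npm1 and Ncl, whose RNA rose, had footprints of 249 and 252 CPM in KO against 235 and 244 CPM in SCR cells (0.06, SE 0.06, adjusted p = 0.532), and of 398 and 396 CPM in KO against 368 and 358 CPM in SCR cells (0.13, SE 0.06, adjusted p = 0.249). The KO libraries were slightly above the SCR libraries in both genes. Among processome genes the smallest p-values belonged to 3 repeat proteins of the early complexes. Wdr36 was at 71.3 and 74.0 CPM in KO and 60.0 and 58.7 CPM in SCR footprints (0.29, SE 0.06, adjusted p = 0.0722). Utp15 was at 68.2 and 64.1 CPM in KO and 52.9 and 55.3 CPM in SCR footprints (0.29, SE 0.06, adjusted p = 0.0867). Wdr43 was at 51.9 and 52.8 CPM in KO and 45.6 and 46.1 CPM in SCR footprints (0.19, SE 0.05, adjusted p = 0.127). These 3 genes had separate groups but did not pass.

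In late 40S assembly, Pno1 was at 30.1 and 27.6 CPM in KO and 22.8 and 24.9 CPM in SCR footprints (0.27, SE 0.08, adjusted p = 0.143). Riok1 was at 33.0 and 31.5 CPM in KO and 27.5 and 28.6 CPM in SCR footprints (0.20, SE 0.06, adjusted p = 0.153). Tsr3, which adds an aminocarboxypropyl group to the base that Emg1 methylates, was at 8.83 and 9.21 CPM in KO and 10.1 and 11.1 CPM in SCR footprints (-0.23, SE 0.10, adjusted p = 0.238). Pno1 and Riok1 were higher and Tsr3 lower in both KO libraries, none of them past the threshold.

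Footprint CPM per kilobase of coding sequence, called density here, gives the order of total footprints per coding length among the members. The coding length was the longest annotated ORF of a gene in the authors' ORF database. Density was not divided by RNA, so it follows the amount of mRNA as well as the ribosomes per mRNA. The SCR ratio of mean footprint CPM to mean RNA CPM had another order, with Utp3 highest at 2.55, Nop10 at 1.89, Ncl at 0.854 and Npm1 at 0.682. In SCR cells the mean density, in CPM per kilobase, was 277 for Npm1, 226 for Nop10 and 171 for Ncl, and it was lowest for Utp20 at 5.44, Rrp12 at 5.69 and Rrp9 at 7.11. The snoRNP core ranged from 18.4 to 226 with a median of 69.8, the transferases from 8.11 to 57.4 with a median of 14.3, and the processome from 5.44 to 53.3 with a median of 15.2. Catalytic and core subunits of the same particle differed widely: in the C/D particle the SCR means were 93.1 for Nop56, 87.4 for Nop58, 46.5 for Snu13 and 14.3 for Fbl. Nop56 holds 5 snoRNA genes and Nop58 holds 4, while Snu13 and Fbl hold none. Whether snoRNA fragments entered these counts was not tested. In Nop58 the density was 116 in KO and 87.4 in SCR cells. An upstream open reading frame listed for Nop10, described further on, was not separated from its gene count. That frame was listed with 1764 footprint positions, over libraries that are not stated. The footprint count of Nop10 was 576 and 873 in KO and 1133 and 1341 in SCR libraries. Part of its density may therefore lie outside the coding sequence.

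**Figure D3:**
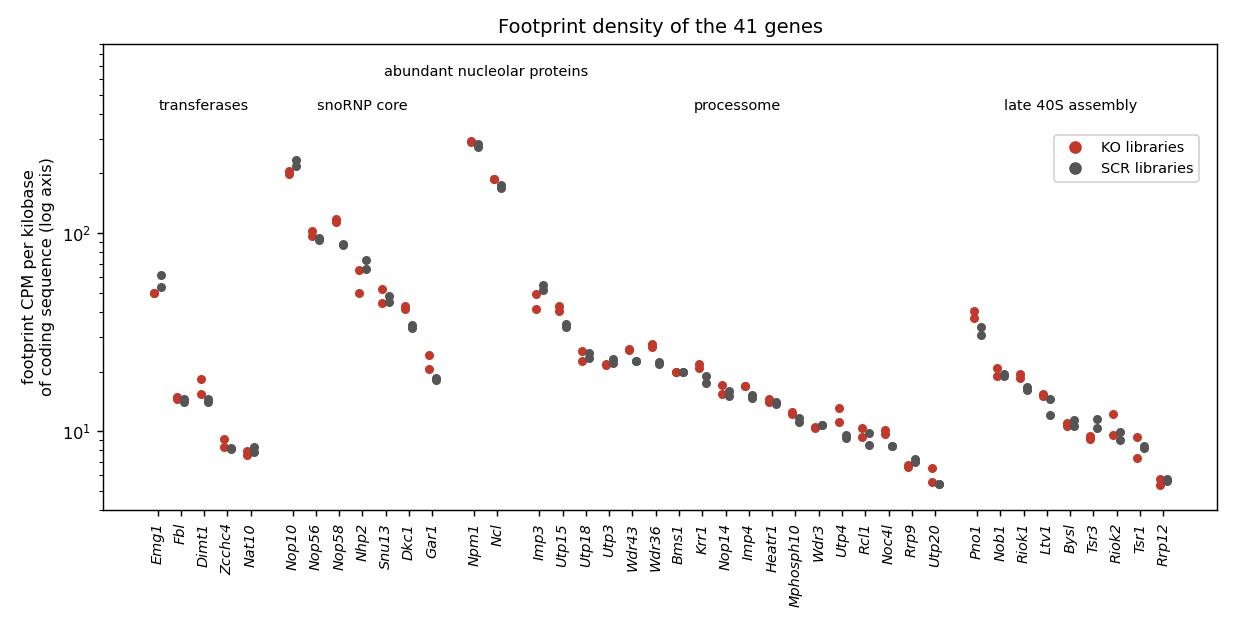
Footprint density of the 41 genes (y axis, log scale: footprint CPM per kilobase of coding sequence) in each KO library (red, left) and SCR library (grey, right), ordered by mean within each role. Npm1, Nop10 and Ncl stand highest and Utp20 and Rrp12 lowest, and the KO and SCR points of most genes lie close together relative to the range between genes.

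Footprints over RNA, also called translational efficiency, was tested with all 8 libraries in 1 model, as the genotype effect in footprints minus that in RNA. Of the 41 genes, 4 fell in KO cells and none rose, while 3.4% of the 23211 genes tested fell and 0.788% rose. These 23211 include genes that passed the filter on low counts in 1 assay alone, and 13779 genes were tested in both assays. All 41 members passed in both, so the shares over all genes are not a like background. At an unadjusted p below 0.05, 17 members were lower and 0 higher, which is 41.5% of the members, against 20.3% of all genes tested. The median log2 difference was -0.19 for the members and -0.05 for all genes, and 32 members, or 78.0%, were below 0, against 54.6% of all genes. This comparison uses the same RNA libraries as the comparison of input RNA, so a gene whose RNA is high in KO is drawn towards a low value here, and the difference was below 0 in all 21 genes whose RNA rose.

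The 4 genes that fell come from 3 groups. Rrp12 had a log2 difference of -0.52 (SE 0.09, adjusted p = 0.0330), with 22.3 and 20.7 CPM in KO and 22.4 and 21.8 CPM in SCR footprints, beside RNA that was 1.36-fold higher in KO. Emg1 had -0.72 (SE 0.13, adjusted p = 0.0352). Rrp9 had -0.70 (SE 0.13, adjusted p = 0.0358), with 9.62 and 9.40 CPM in KO and 9.96 and 10.3 CPM in SCR footprints. Fbl had -0.45 (SE 0.09, adjusted p = 0.0442). In Rrp12 and Fbl the footprint groups overlapped, and in Emg1 and Rrp9 both KO libraries lay below both SCR libraries without passing. The ratio of mean footprint CPM to mean RNA CPM was 0.285 in KO and 0.458 in SCR cells for Emg1, 0.299 in KO and 0.474 in SCR for Rrp9, 0.346 in KO and 0.482 in SCR for Rrp12, and 0.221 in KO and 0.294 in SCR for Fbl.

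These 4 calls depended on the processing. None of the 41 passed without KO replicate 1, SCR replicate 1 or SCR replicate 2 of input RNA, where 0, 3 and 0 of all genes were called, against 973 with all libraries. None passed with voom either, which called 0.582% of all genes higher and 1.92% lower, while DESeq2 gave 8 falls and no rise, with 3.53% of all genes higher and 11% lower. With library totals as the only scaling there were 0 falls and 2 rises (Nop58 and Wdr36), and 76.8% of all genes called were higher, against 18.8% with TMM. The median of all genes was 0.15 under that scaling and the median of the members 0.02. Relative to all genes the members stood at -0.14 with TMM and -0.13 with library totals.

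Other members stood close to the threshold. Npm1 had -0.50 (SE 0.11, adjusted p = 0.0506), Nat10 -0.39 (SE 0.09, adjusted p = 0.0528) and Bysl, a factor of the pre-40S particle, -0.43 (SE 0.10, adjusted p = 0.0534). Nob1 had -0.44 (SE 0.11, adjusted p = 0.0630) and Nhp2 the lowest value of all, -0.80, with a wide error (SE 0.20, adjusted p = 0.0691). Utp3 and Imp3, both processome proteins, had -0.44 (SE 0.12, adjusted p = 0.0825) and -0.53 (SE 0.14, adjusted p = 0.0843). These values are large relative to their errors but none passed. Ncl had -0.24 (SE 0.12, adjusted p = 0.327), Snu13 -0.23 (SE 0.11, adjusted p = 0.291) and Zcchc4 -0.08 (SE 0.10, adjusted p = 0.754). The highest values were those of Dimt1 at 0.28 (SE 0.13, adjusted p = 0.301), Noc4l at 0.21 (SE 0.11, adjusted p = 0.335) and Nop58 at 0.19 (SE 0.09, adjusted p = 0.278).

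In the authors' deposited table of footprints over RNA, 9 of the 41 genes fell and none rose at an adjusted p below 0.05, while 8.69% of the 16872 genes with a value there fell and 2.17% rose. The 9 include the 4 genes named above. In the authors' deposited table the adjusted p was 0.00221 for Rrp12, 0.00257 for Emg1, 0.00629 for Rrp9, 0.00672 for Npm1, 0.0173 for Nob1, 0.0215 for Nat10, 0.0320 for Fbl, 0.0335 for Nhp2 and 0.0383 for Nop14. The authors' deposited table gives a ratio of 0.154 in KO and 0.257 in SCR cells for Emg1, and of 0.187 in KO and 0.271 in SCR cells for Rrp12. The median log2 fold change (KO over SCR) in the authors' deposited table was -0.21 for the members and -0.09 for all genes. Both results come from the same libraries.

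Set side by side, 17 members rose in input RNA alone, 4 rose in input RNA and fell in footprints over RNA, 1 rose in footprints alone, and 19 passed in no comparison. The 21 genes whose RNA rose had footprint log2 fold changes of -0.28 to 0.32 with a median of 0.06. Their footprint groups overlapped in 10 genes, lay higher in KO in 7 and lower in KO in 4. For all genes tested in footprints, 29.5% lay higher and 28.2% lower in KO, so these counts do not set the 21 genes apart. Across the 41 genes the RNA and footprint log2 fold changes had a Pearson r of -0.37, and across the 13779 genes tested in both assays r was 0.18. These points share their libraries, genes are not independent replicates, and the range of RNA changes among the members is narrow.

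**Figure D4:**
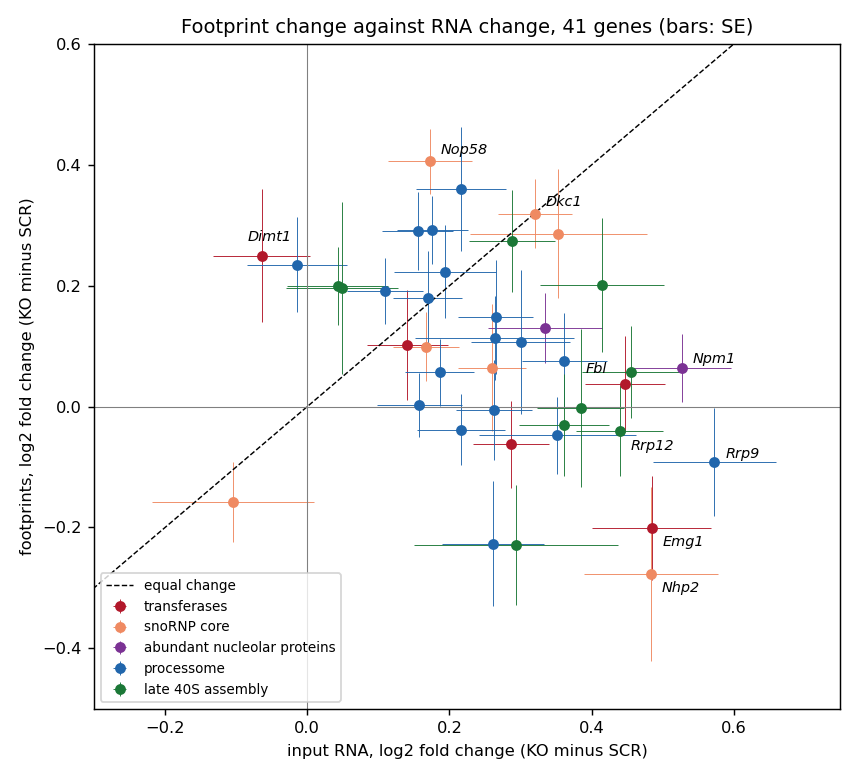
Footprint log2 fold change (y axis) against input RNA log2 fold change (x axis), both KO minus SCR, for the 41 genes, coloured by role, with bars of 1 SE. The dashed line marks equal change in the separate fits of the 2 assays. Emg1, Nhp2, Rrp9, Npm1 and Rrp12 lie far below the line and Nop58 and Dimt1 above it. In the fit over 8 libraries, 32 of the genes had a footprints-over-RNA difference below 0. That fit was scaled over both assays, and some of the 32, such as Imp4 and Krr1, lie just above the line.

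Genes of ribosome assembly outside the 41 also rose in input RNA, and differences between the lists were not tested. Of 27 further genes of the processome and 40S assembly, 10 rose and none fell in input RNA (median 0.22), among them Rrp7a (0.38, SE 0.05, adjusted p = 0.00507), Pwp2 (0.54, SE 0.08, adjusted p = 0.00690) and the helicase gene Dhx37 (0.37, SE 0.05, adjusted p = 0.00725). In footprints 0 of these 27 passed with edgeR, and the median was 0.05. An unadjusted p below 0.05 was seen in 9, with Nol6 lower and the others higher, against 25% of all genes tested. In footprints over RNA, Nol6 (-0.48, SE 0.09, adjusted p = 0.0377) and Rrp7a (-0.39, SE 0.08, adjusted p = 0.0427) fell and none rose (median -0.20).

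Of 45 genes of large subunit assembly, 25 rose and none fell in input RNA (median 0.29), led by Nip7 (0.82, SE 0.08, adjusted p = 0.00299), Urb2 (0.52, SE 0.06, adjusted p = 0.00472) and Mrto4 (0.70, SE 0.09, adjusted p = 0.00512). In footprints Mak16 rose (0.50, SE 0.05, adjusted p = 0.0338) and none fell (median 0.07). In footprints over RNA 6 fell and none rose (median -0.27), among them Ppan (-0.63, SE 0.10, adjusted p = 0.0233), the methyltransferase gene Nop2 (-0.495, SE 0.09, adjusted p = 0.0321) and Eif6, which keeps the subunits apart (-0.76, SE 0.13, adjusted p = 0.0322).

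Of 14 measured genes of RNA polymerase I and its factors, 8 rose and none fell in input RNA (median 0.22), among them the subunit genes Polr1b (0.45, SE 0.06, adjusted p = 0.00705) and Polr1d (0.55, SE 0.09, adjusted p = 0.0108) and the activator gene Ubtf (0.32, SE 0.05, adjusted p = 0.00767). In footprints 0 of these 14 passed with edgeR (median 0.08). An unadjusted p below 0.05 was seen in 4, with Polr1c lower and the others higher, against 25% of all genes tested. In footprints over RNA Polr1c (-0.53, SE 0.07, adjusted p = 0.0208), Ubtf (-0.43, SE 0.08, adjusted p = 0.0322) and Polr1d (-0.62, SE 0.13, adjusted p = 0.0489) fell and none rose (median -0.25).

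**Figure D5:**
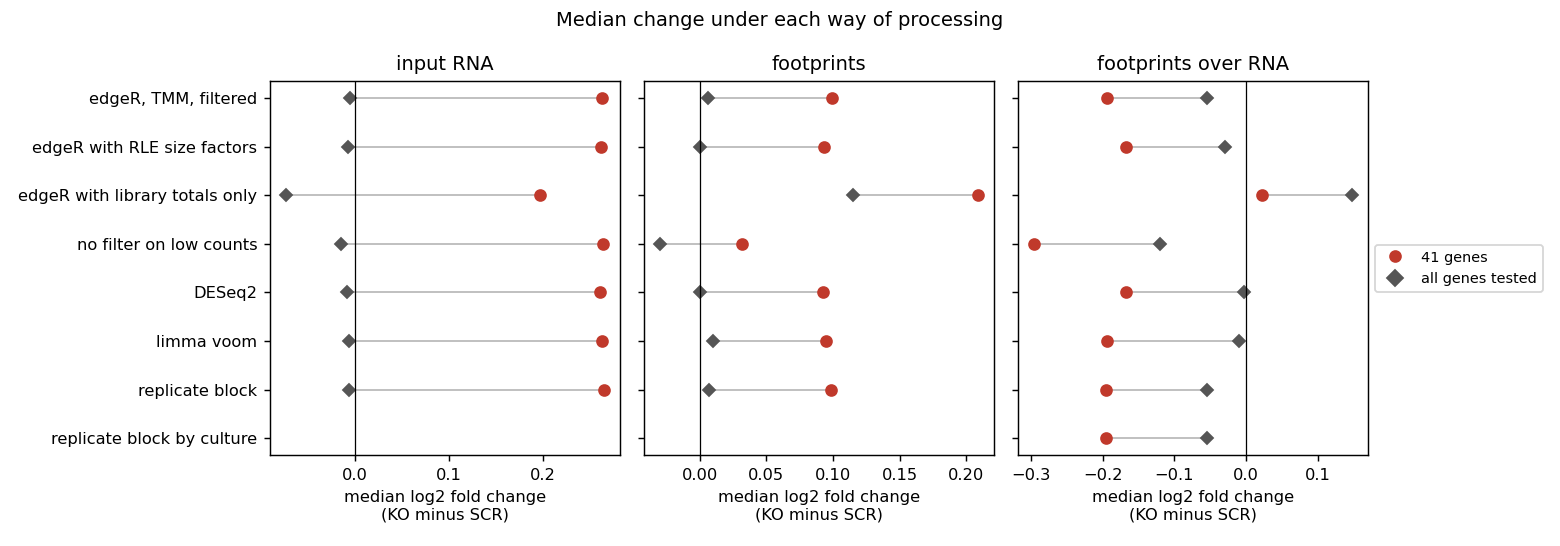
Median log2 fold change (KO minus SCR, x axis) of the 41 genes (red circles) and of all genes tested (grey diamonds) under each way of processing (y axis), in input RNA, footprints and footprints over RNA. The members lie to the right of all genes in the first 2 panels and to the left in the third under each setting drawn, while library totals as the only scaling shift both sets.

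Open reading frames (ORFs) outside the annotated coding sequence were listed in 19 of the 41 genes by the authors' ORF database, 23 ORFs in all. They were 10 upstream ORFs (uORFs), 9 uORFs that overlap the coding sequence and 4 ORFs downstream of it. A uORF of either kind was listed in 16 members, or 39.0%, against 30.3% of the 12257 genes with an annotated ORF. Of the genes with changed footprints over RNA, Emg1 and Rrp12 list 1 each, and Fbl and Rrp9 list none.

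The authors also deposited a list of 1383 ORFs named as larger in KO, with no member gene, and a list of 1614 ORFs named as larger in SCR, with 5 ORFs in 4 member genes. The clearest of them is a uORF of Nop10 that starts with ACG and has 11 codons. It is not among the ORFs of the database counted above, which lists 1 downstream ORF for Nop10. It had 1764 P-sites, the positions of the decoding site of a footprint, of which 89.0% were in its frame, and 555 RPKM (the authors' adjusted p of translation was 0.00807). In the 2 ORFs of Ncl the share of P-sites in frame was 34.4% of 2610 and 35.9% of 1025, close to an even split over 3 frames. The overlapping uORF of Utp3 had 37.7% of 228 P-sites in frame, and the downstream ORF of Npm1 had 26 of 52. No source used here says which libraries these sums cover, so no comparison between genotypes was made from them. The counts of 0 and 5 member ORFs have no share over all genes beside them. Whether ORFs of the members lean to either list was not tested.

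Promoter sequences, from 250 bases before to 50 after the start, were held for 36 of the 41 genes in a RefSeq table of build GRCm38.p6, which differs from the GRCm39 build of the count tables and was used only for sequence. Fbl, Tsr3, Npm1, Rrp12 and Wdr36 had no entry. The motif CCGGAAG, the core of ETS factor sites, was found on either strand in 13 of the 36 genes, or 36.1%, against 12.9% of protein-coding genes and 9.93% of all genes. The E-box CACGTG, which reads alike on both strands, was found in 8, or 22.2%, against 8.91% of protein-coding genes and 8.09% of all genes. No match of 1 motif overlaps a match of the other in the stretches printed here. They are shown because they hold at least 2 matches in the 150 bases before the start of a gene whose RNA rose: those bases of Emg1 (chr6:124712179-124712328, minus strand), Ltv1 (chr10:13193138-13193287, minus strand) and Utp18 (chr11:93885767-93885916, minus strand), 5′ to 3′, with each motif in capitals, on the strand shown or as its reverse complement CTTCCGG.
Emg1: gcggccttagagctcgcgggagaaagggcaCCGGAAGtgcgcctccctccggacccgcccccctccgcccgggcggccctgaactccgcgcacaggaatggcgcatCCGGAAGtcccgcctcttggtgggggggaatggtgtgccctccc
Ltv1: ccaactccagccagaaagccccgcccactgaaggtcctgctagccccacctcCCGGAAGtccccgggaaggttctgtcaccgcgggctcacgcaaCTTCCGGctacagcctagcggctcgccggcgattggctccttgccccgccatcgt
Utp18: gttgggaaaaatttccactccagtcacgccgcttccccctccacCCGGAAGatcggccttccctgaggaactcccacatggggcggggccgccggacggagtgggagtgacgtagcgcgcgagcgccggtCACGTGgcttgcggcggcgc

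Emg1 and Ltv1 each show 2 ETS motifs, and Utp18 shows 1 ETS motif and 1 E-box. Utp4 also holds 2 ETS motifs in the same stretch, but its RNA did not pass (adjusted p = 0.0582), so it is not printed. Among genes with an ETS motif, Emg1, Ltv1, Utp18, Nhp2, Tsr1, Heatr1 and Snu13 rose in input RNA. Utp3, Utp4, Wdr3, Gar1, Bms1 and Mphosph10 have the motif too and did not pass. Whether the ETS motif goes with a rise was not tested. Of the 8 genes with an E-box, 5 rose in input RNA (median log2 fold change 0.26), and of the 28 genes without one, 13 rose (median 0.26). A match to these letters is a description of the sequence and not a bound site.

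Some members share genomic space with other genes, and no source used here states the strand setting of the counting. By the RefSeq annotation, 18 of the 41 genes overlap another gene that is not a snoRNA, and 6 (Nop56, Nop58, Ncl, Wdr43, Dkc1 and Tsr1) hold 16 snoRNA genes in all. Of the 21 genes that rose in input RNA, 10 overlap such a gene (Emg1, Nat10, Dkc1, Nhp2, Ncl, Heatr1, Rcl1, Nop14, Tsr1 and Bysl), for example Emg1 with Lpcat3 and Nat10 with Caprin1, and reads in the shared bases cannot be assigned without strand.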

How the data were processed

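The authors deposited estimated counts per gene for each library, as whole numbers without scaling. STAR 2.7.10a, StringTie 2.1.7 and the build GRCm39 are named per the submitters' processing notes, which assign them no step. The authors' deposited table of footprints over RNA holds a ratio for each genotype, its log2 fold change, a p-value and an adjusted p-value. The deposited ORF lists give a count of P-sites per frame, an RPKM and an adjusted p-value. In the deposited ORF database the score column is 0, so that only names were used. The T-cell receptor and single-cell samples were not used here.

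The counts were fitted with edgeR 4.0.16 in R 4.3.3 (filterByExpr, TMM, quasi-likelihood F test, Benjamini-Hochberg adjusted p below 0.05 over all genes tested). Input RNA and footprints had separate fits, and footprints over RNA was an interaction term over 8 libraries. DESeq2 1.42.0 and limma 3.58.1 (voom) were alternatives. The fits were tested on simulated counts, drawn at the dispersion of the fits themselves. In them 100 genes were changed by a log2 fold change of 1 and 100 by 2, and false calls were a share of all calls. Smaller changes, such as those of the members, were not simulated, so the share of such changes that would be found is not known. In input RNA 83% of the genes changed by 1 were found among 20025 genes and 5.67% of calls were false. In footprints 72% were found among 16878 genes and 4.49% of calls were false. In footprints over RNA 50% were found among 23211 genes and 3.05% of calls were false. Promoters and overlaps were read in Python 3.11.15 with pandas 2.3.3.

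The members, gene lists and naming rule were chosen with earlier results of these data known. Values in every library are given for the 5 transferases and for the 3 members of smallest p in each other role and comparison. Members that are highest or lowest in a role may be named, and up to 3 genes of smallest p per other list and comparison. The RNA of Nop58 was added after its footprints were seen.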

Additional observations from a re-analysis of the deposited data

How the results depend on the processing

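With 2 libraries per group, the depth and the spread limit what can be called, and the cause of the changes below was not tested. In input RNA the members called were 21, and 11 with no filter on low counts, where 1193 of all genes were called in place of 3358. The members' median was 0.20 with library totals. Leaving out 1 library gave 4 to 25 members and 1031 to 4251 of all genes, with medians of 0.24 to 0.28. In footprints the 1 member called became 4 with library totals, 3 with DESeq2 and 0 with no filter. All genes called were 387, against 673, 1381 and 755 in these settings. The median was 0.21 with library totals and 0.032 with no filter. Leaving out 1 library gave 0 members and 25 to 128 of all genes, with medians of 0.05 to 0.12. In footprints over RNA the 4 members called became 2 (both higher) with library totals, 6 with no filter, 8 with DESeq2 and 0 with voom. All genes called were 973, against 1316 (1011 of them higher), 1096 (1016 of them lower), 1863 and 581 in these settings. The median turned positive with library totals (0.021) and was -0.296 with no filter. Leaving out 1 library gave 0 to 7 members and 0 to 1187 of all genes, with medians of -0.14 to -0.32. No named member that had passed changed sign in any setting.

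The replicate numbers of KO and SCR libraries had deviations that correlated across genes at 0.0461 (RNA) and 0.0539 (footprints), over 2 pairs each. KO and SCR libraries of the same number thus shared little deviation within an assay. Footprints were not set against RNA of the same number, so this check cannot show whether those came from the same culture. With a replicate block, 22 members were called in input RNA (3659 of all genes), 0 in footprints (0 of all genes) and 0 in footprints over RNA (363 of all genes). With a replicate block by culture, which joins footprints and RNA of the same number, 0 members and 0 of all genes were called in footprints over RNA. The adjusted p of Emg1, Fbl, Rrp9 and Rrp12 was 0.0575 to 0.0664 with the first and 0.0987 to 0.125 with the second.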
